A study of Mus musculus with 24 samples.

Results

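The 10 genes described here encode elastic fibre proteins and matrix glycoproteins, and were followed in the whole ear of C57BL/6 mice: Eln, Fbn1, Fbln1, Fn1, Tnc, Postn, Dcn, Lum, Thbs1 and Sparc. They were taken by symbol, and each matched 1 Ensembl identifier among the 51912 genes of the count table, so the set holds 10 of 51912 genes. All 10 passed the filter on low counts, which left 17287 genes to test. Polyadenylated RNA was sequenced in 24 libraries of 4 groups with 6 libraries each: wild-type (Wt) and CARD14E138A ears at day 5 and at 1 month. CARD14 is a signalling scaffold that is abundant in keratinocytes, and the mutant form, which activates NF-kB without a stimulus, is linked to psoriasis. In the mutant mice a stop cassette (LSL) in the endogenous Card14 locus holds back the E138A allele until tamoxifen activates the recombinase CreERT2. Every mouse, wild type included, received tamoxifen intraperitoneally once a day for 3 days, and times were counted from the first injection. The labels name neither the promoter that drives CreERT2, nor whether wild-type mice carried it, nor the age of the mice. They do not say that each library came from its own mouse, so the p-values below measure the spread between libraries. The study set out to separate early from lasting effects of the mutation, which for these genes means comparing the genotypes at each time and comparing the differences between times.

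Elastic fibres give skin and ear cartilage their recoil. They consist of a core of elastin laid down on fibrillin microfibrils, with fibulins and other glycoproteins at the interface and lysyl oxidases that cross-link the core. Fibronectin forms fibrils that cells grip through integrins, the small leucine-rich proteoglycans decorin and lumican coat collagen fibrils, and the matricellular proteins (tenascin-C, periostin, thrombospondin-1 and SPARC) signal to cells more than they bear load. Fibroblasts make most of these proteins in dermis, and tenascin-C and periostin are known for their abundance in wounds and inflamed skin.

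On GRCm38 (GENCODE M21) each of the 10 is a protein-coding gene. The elastic fibre genes are Eln (ENSMUSG00000029675, chr5:134702593-134747323, minus strand), Fbn1 (ENSMUSG00000027204, chr2:125300594-125507993, minus strand) and Fbln1 (ENSMUSG00000006369, chr15:85205949-85286535, plus strand), and fibronectin is Fn1 (ENSMUSG00000026193, chr1:71585520-71653200, minus strand). The matricellular genes are Tnc (ENSMUSG00000028364, chr4:63959785-64047015, minus strand), Postn (ENSMUSG00000027750, chr3:54361109-54391037, plus strand), Thbs1 (ENSMUSG00000040152, chr2:118111876-118127133, plus strand) and Sparc (ENSMUSG00000018593, chr11:55394500-55423183, minus strand). The proteoglycan genes are Dcn (ENSMUSG00000019929, chr10:97479609-97518143, plus strand) and Lum (ENSMUSG00000036446, chr10:97565128-97572703, plus strand), both on chromosome 10. Values below are per gene and do not separate isoforms.

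Promoter sequences from RefSeq (GRCm38.p6) were found for 5 of the 10 genes: Fbln1, Fbn1, Postn, Sparc and Tnc. Eln, Fn1, Dcn, Lum and Thbs1 had no entry. The 250 bases before the RefSeq start are shown, 5′ to 3′ on the gene's own strand, for Tnc, Postn and Fbln1, all of which were higher in mutant ears at 1 month and whose start lies within 2 bases of that of the gene annotation. Capitals mark matches to the motifs searched. These were the GC box (GGGCGG), the TATA box (TATAAA), the SMAD core (CAGAC), the AP-1 element (TGANTCA), the NF-kB element and the CArG box, each on both strands.
The Tnc window lies at chr4:64047016-64047265 on the minus strand, the Postn window at chr3:54360857-54361106 on the plus strand and the Fbln1 window at chr15:85205699-85205948 on the plus strand.
Tnc: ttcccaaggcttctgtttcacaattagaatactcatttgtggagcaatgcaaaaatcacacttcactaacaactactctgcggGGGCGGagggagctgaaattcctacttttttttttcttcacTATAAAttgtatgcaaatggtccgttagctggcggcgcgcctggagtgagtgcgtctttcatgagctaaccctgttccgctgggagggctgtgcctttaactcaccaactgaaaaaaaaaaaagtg
Postn: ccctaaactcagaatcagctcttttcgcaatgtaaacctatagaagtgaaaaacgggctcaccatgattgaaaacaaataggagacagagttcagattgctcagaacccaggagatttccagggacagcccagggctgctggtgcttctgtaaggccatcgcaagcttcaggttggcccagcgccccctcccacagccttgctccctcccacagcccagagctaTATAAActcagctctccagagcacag
Fbln1: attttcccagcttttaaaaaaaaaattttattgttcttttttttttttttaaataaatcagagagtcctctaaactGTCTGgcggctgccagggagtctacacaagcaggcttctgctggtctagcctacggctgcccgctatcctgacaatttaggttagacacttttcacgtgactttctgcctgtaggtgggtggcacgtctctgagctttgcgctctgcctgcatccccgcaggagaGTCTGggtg

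The Tnc window holds a GC box at bases -167 to -162 and the letters of a TATA box at -126 to -121, counted back from the start. In the Postn window the TATA letters stand at -26 to -21. Fbln1 has the SMAD core on the minus strand, printed as its complement, at -174 to -170 and at -9 to -5. Among 32851 RefSeq windows of the same 250 bases, 32.7% held a GC box, 12.4% the TATA letters and 42.2% the SMAD core. No letters of the NF-kB element (7.25% of all windows), the AP-1 element (6.75%) or the CArG box (1.47%) stood in any of the 5 windows. Of the pair not shown, Fbn1 held 1 GC box and Sparc 1 SMAD core.

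Total counts were 15661515 to 16998900 per library in wild-type and 16803680 to 18852963 in mutant ears at day 5, and 19255028 to 23904976 and 20608274 to 23022149 at 1 month. The counts do not resolve the mutant codon, so the genotype labels were not checked from the alleles. Summed keratinocyte markers lay at 16340 to 47120 CPM (counts scaled to each library's adjusted total) over all 24 libraries, and all 8 cartilage markers had counts in every group, as the label whole ear requires. Libraries differed in base composition: the Spearman correlation across genes between a library's deviation from the gene mean and transcript GC content, called the GC correlation here, ran from -0.40 to 0.05 at day 5 and from -0.46 to 0.56 at 1 month. It was above 0.2 in wild-type libraries 2, 4 and 5 and in mutant libraries 1, 2 and 6 of the 1 month groups. Y-linked genes summed to under 80 CPM in wild-type library 2 and mutant libraries 1, 2 and 6 at 1 month, and to 102 CPM or more in the others. Both properties run across the 1 month groups. Among libraries below 0.2, GC correlation was not matched between genotypes (wild type -0.42 to 0.14, mutant -0.46 to -0.39). Values within each GC set and without the libraries low in Y-linked genes are given below for the 7 genes called at 1 month. The fit without those libraries keeps mutant libraries of -0.46 to -0.39 and wild-type libraries of -0.42 to 0.32. It therefore does not balance base composition between the genotypes.

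Levels per length of RNA (RPKM on the union of exons) set the scale between the genes. Sparc, a collagen-binding calcium protein, was highest in wild-type ears at day 5 with 736 ± 98.7 RPKM (SD, n = 6), followed by Dcn at 371 ± 43.7 RPKM. Neither range of libraries overlapped the next gene's. Lum (118 ± 19.6), Thbs1 (105 ± 11.4), Postn (77.7 ± 12.8), Fn1 (64.4 ± 7.72) and Eln (58.6 ± 7.83) came next, and each overlapped its neighbour in that order. Fbn1 (29.1 ± 4.59), Tnc (13.8 ± 1.97) and Fbln1 (6.70 ± 0.793) were lower, with no overlap from one to the next. Fbln1 stayed the lowest in all 4 groups. In mutant ears at day 5 Sparc fell to 290 ± 59.2 RPKM and overlapped Dcn at 293 ± 27.6, while Tnc moved from rank 9 to rank 6 with 54.9 ± 30.0 RPKM. At 1 month Sparc was again first in both genotypes, and Tnc stood at rank 9 in wild type and rank 5 in mutant ears.

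**Figure D1:**
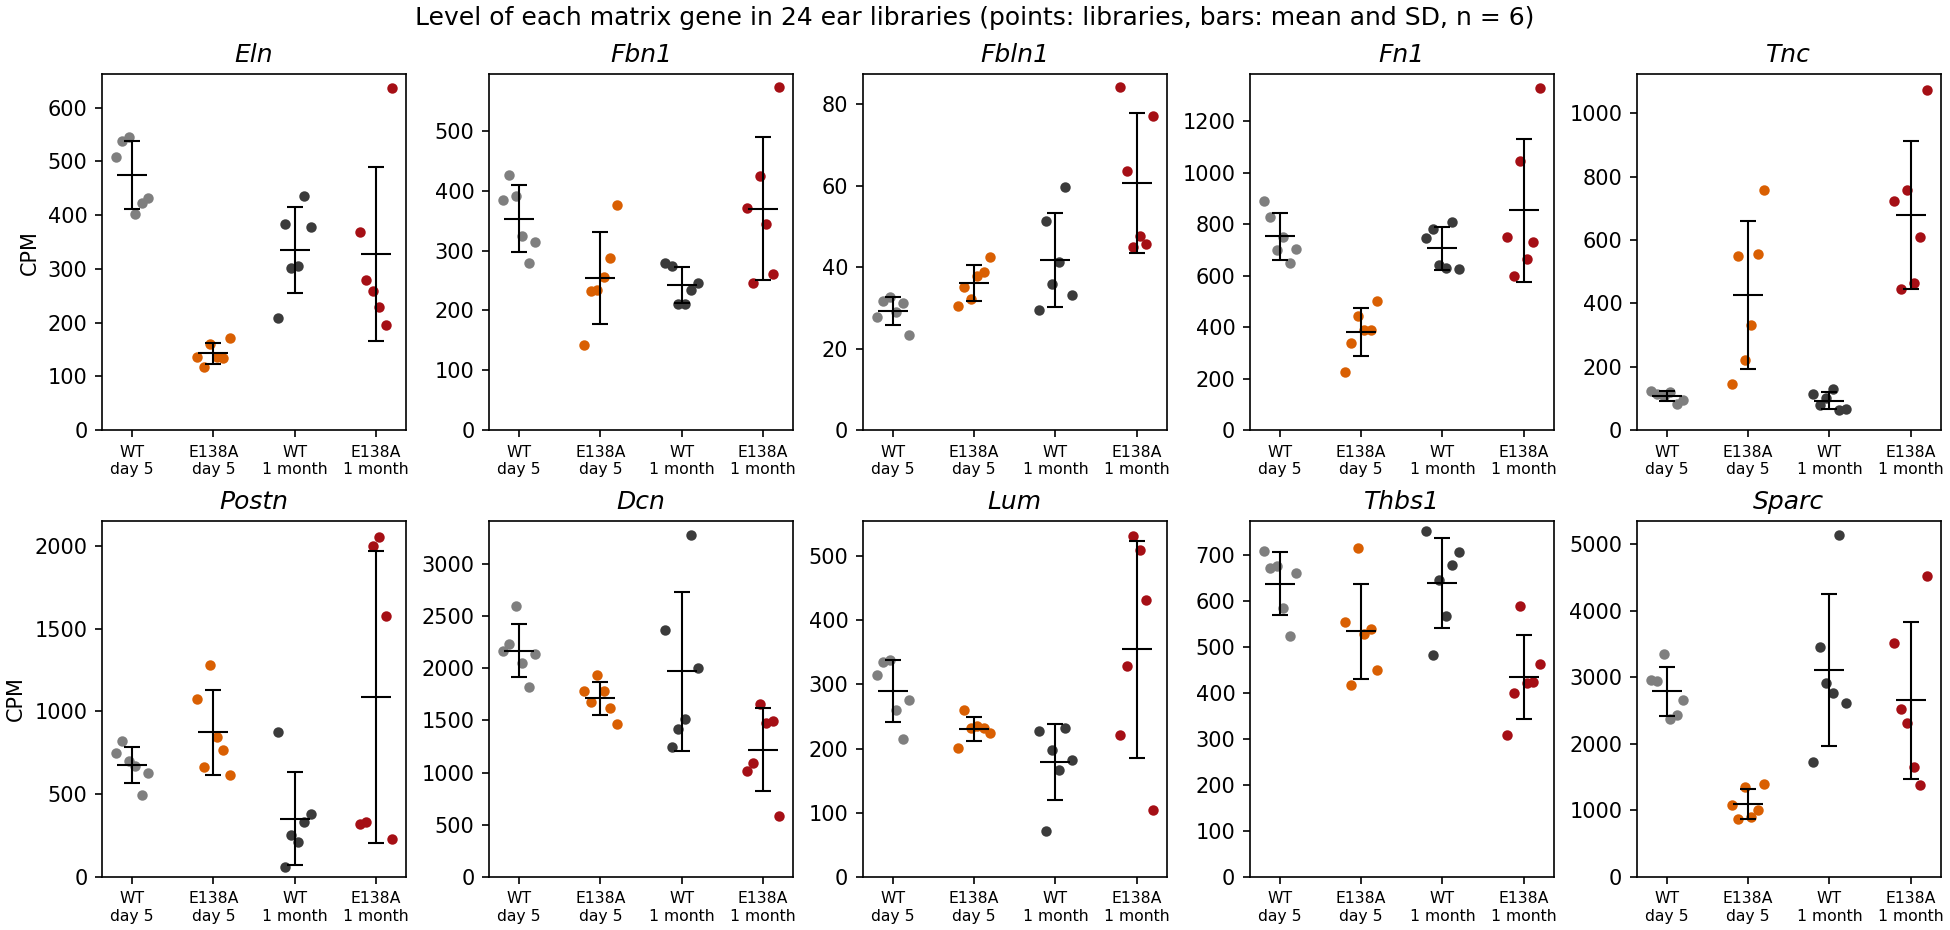
CPM (y axis, linear from 0) of the 10 genes in each library of the 4 groups (x axis), with the mean and SD of 6 libraries. At day 5 the mutant points of Eln, Fn1 and Sparc lie below and those of Tnc above every wild-type point, and at 1 month Postn in mutant ears falls into 3 libraries at 231 to 332 CPM and 3 at 1577 to 2051 CPM.

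At day 5 elastin, fibronectin and SPARC transcripts were lower in mutant than in wild-type ears and tenascin-C was 3.97-fold higher, by edgeR's quasi-likelihood test with adjustment over all genes. Of the 10 genes, 1 rose, 3 fell and 6 did not pass the test, where 20.7% of all tested genes rose and 20.2% fell. The same 4 genes did not overlap between the groups, which held for 34.3% of all tested genes in either direction. The median log2 fold change was -0.34 over the 10 genes and -0.02 over all genes. In RNA of a whole ear, fewer cells that make a transcript and less transcript per cell cannot be told apart.

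Eln, the elastin gene, gave 401 to 546 CPM with a median of 469 in wild-type ears at day 5 and 117 to 171 CPM with a median of 137 in mutant ears. All 6 mutant libraries lay below all 6 wild-type libraries. The log2 fold change was -1.73 ± 0.22 (SE), an Eln level 3.33 times lower, with an adjusted p of 1.7e-06 (edgeR). Sparc went the same way, at 2368 to 3355 CPM with a median of 2803 in wild-type against 872 to 1393 CPM with a median of 1037 in mutant ears. Its groups also stood apart, and the fall was 1.34 on the log2 scale (SE 0.25, adjusted p = 0.00017 with edgeR). Fn1, the fibronectin gene, ranged over 648 to 890 CPM with a median of 725 in wild-type and 224 to 500 CPM with a median of 388 in mutant ears. Mutant Fn1 was thus below wild type in 6 of 6 libraries, by 0.98 on the log2 scale (SE 0.18, edgeR adjusted p = 0.00014).

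Tnc encodes tenascin-C, a large hexameric glycoprotein that is scarce in resting adult skin. Its libraries held 82.8 to 123 CPM with a median of 112 in wild-type ears at day 5 and 145 to 758 CPM with a median of 440 in mutant ears. The mutant libraries spread over a 5.22-fold range against 1.49-fold in wild type, and still all lay above the highest wild-type one. The log2 fold change was 1.99 ± 0.31 (SE) with an adjusted p of 2.0e-05 (edgeR).

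The other 6 genes were not called at day 5. Fbn1, which encodes the main microfibril protein fibrillin-1, had a log2 fold change of -0.47 ± 0.20 and an adjusted p of 0.058 (edgeR), with overlapping groups at 280 to 426 CPM with a median of 354 and 142 to 376 CPM with a median of 245. It passed in 4 of the 24 fits without 1 library, among them that without mutant library 6 of that time (-0.62, edgeR adjusted p = 0.015). Fbn1 was also called lower in 6 of the 12 alternative settings. Dcn and Lum, the decorin and lumican genes, stood at -0.34 ± 0.22 and -0.33 ± 0.28, and Thbs1, for thrombospondin-1, at -0.26 ± 0.15. Fbln1, for the elastin-binding fibulin-1, stood at 0.31 ± 0.17, and Postn, for periostin, at 0.37 ± 0.51. Adjusted p for these 5 ran from 0.16 to 0.60 (edgeR). When the day 5 libraries alone were fitted, 8 of the 10 genes were called, 2 higher and 6 lower. That fit also called more of all genes, 9913 of 16196 tested (5093 higher, 4820 lower), against 7068 of 17287 in the main fit.

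At 1 month the pattern was another one: Tnc was 7.35-fold higher, Postn, Lum, Fbn1 and Fbln1 were higher, Dcn and Thbs1 were lower, and Eln, Fn1 and Sparc did not pass the test. That makes 5 genes that rose and 2 that fell of 10, where 25.5% of all tested genes rose and 21.5% fell by the same edgeR test. Tnc alone had groups without overlap, against 21.2% of all genes. When the 1 month libraries alone were fitted, 3 of the 7 were called, Tnc, Thbs1 and Fbn1. That fit also called fewer of all genes, 6055 of 16695 tested (3110 higher, 2945 lower), against 8139 of 17287 in the main fit. The median log2 fold change was 0.40 over the 10 genes and 0.05 over all genes.

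Tnc libraries held 63 to 129 CPM with a median of 90.4 in wild-type ears at 1 month and 444 to 1073 CPM with a median of 667 in mutant ears. Every mutant library lay above the highest wild-type one. The log2 fold change was 2.88 ± 0.32 (SE, edgeR adjusted p = 1.4e-07). Among libraries with a GC correlation above 0.2 the mutant mean was 8.25 times the wild-type mean, and among the others 6.49 times, with no overlap in either set of 3 against 3. Thbs1, whose product binds CD36 and CD47 and can activate latent TGF-beta, was lower in mutant ears, at 484 to 753 CPM with a median of 663 in wild-type against 308 to 589 CPM with a median of 423 in mutant ears. The full groups overlapped, the log2 fold change was -0.56 ± 0.15 (edgeR adjusted p = 0.0027), and the ratio of means was 0.677 and 0.681 in the 2 GC sets, each without overlap. Sets of 3 separate more readily than the full groups, and the share of all tested genes that did so was not counted. Without the libraries low in Y-linked genes the values were 2.66 ± 0.37 for Tnc (edgeR adjusted p = 6.6e-06) and -0.51 ± 0.16 for Thbs1 (0.0094). Tnc and Thbs1 kept their 1 month call in all 12 alternative settings and without any 1 of the 24 libraries.

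Postn, for the collagen-binding matricellular protein periostin, spanned 56.7 to 876 CPM with a median of 292 in wild-type and 231 to 2051 CPM with a median of 955 in mutant ears at 1 month. Mutant libraries 3, 4 and 5 held 1577 to 2051 CPM and mutant libraries 1, 2 and 6 held 231 to 332 CPM, with none between. The log2 fold change over all was 1.63 ± 0.52 (edgeR adjusted p = 0.013). Transcripts of Postn have 36.3% GC, which is percentile 0.934 of the tested genes, and the low mutant libraries are the 3 with a GC correlation above 0.2. Within that set the log2 fold change was 0.56 ± 0.40 (adjusted p = 0.25) and within the other set 1.89 ± 0.36 (adjusted p = 0.00032). In the other set GC correlation was not matched between genotypes (wild type -0.42 to 0.14, mutant -0.46 to -0.39). With offsets corrected for GC content the log2 fold change was 1.67 ± 0.28 (adjusted p = 2.0e-05), and without the libraries low in Y-linked genes 2.18 ± 0.32 (adjusted p = 1.3e-05). The 3 mutant libraries also are 3 of the 4 low in Y-linked genes, and the parts that base composition and this property play in the level were not tested apart.

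Lum, for lumican, also has GC-poor transcripts (41.9%) and ranged over 71 to 231 CPM with a median of 189 in wild-type and 104 to 532 CPM with a median of 380 in mutant ears. Its lowest values in both genotypes came from libraries with the highest GC correlations, wild-type 2 and mutant 6, although wild-type 5, also above 0.2, was the highest of its group. The log2 fold change was 0.98 ± 0.29 (edgeR adjusted p = 0.0063) over all libraries, 0.46 ± 0.33 (adjusted p = 0.27) above a GC correlation of 0.2 and 1.27 ± 0.15 (adjusted p = 3.0e-06) in the other set. Without the libraries low in Y-linked genes Lum stood at 1.27 ± 0.14 (adjusted p = 3.9e-07). Dcn, for decorin, which binds TGF-beta and collagen, has 37.4% GC and was lower, at 1241 to 3279 CPM with a median of 1758 in wild-type against 584 to 1657 CPM with a median of 1286 in mutant ears. The Dcn fall was larger above 0.2, at -1.18 ± 0.27 (adjusted p = 0.0015), than in the other set, at -0.33 ± 0.16 (adjusted p = 0.10). As for Postn and Lum, the signed value was thus lower in the set above 0.2. Over all libraries the Dcn difference was -0.69 ± 0.22 (edgeR adjusted p = 0.012), and -0.50 ± 0.24 (adjusted p = 0.084) with GC-corrected offsets. It was -0.13 ± 0.14 with limma voom and quality weights (adjusted p = 0.44), and -0.48 ± 0.20 without the libraries low in Y-linked genes (edgeR adjusted p = 0.049). Without wild-type library 5, which held 3279 CPM, the Dcn value was -0.49 and its adjusted p 0.053 (edgeR).

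**Figure D2:**
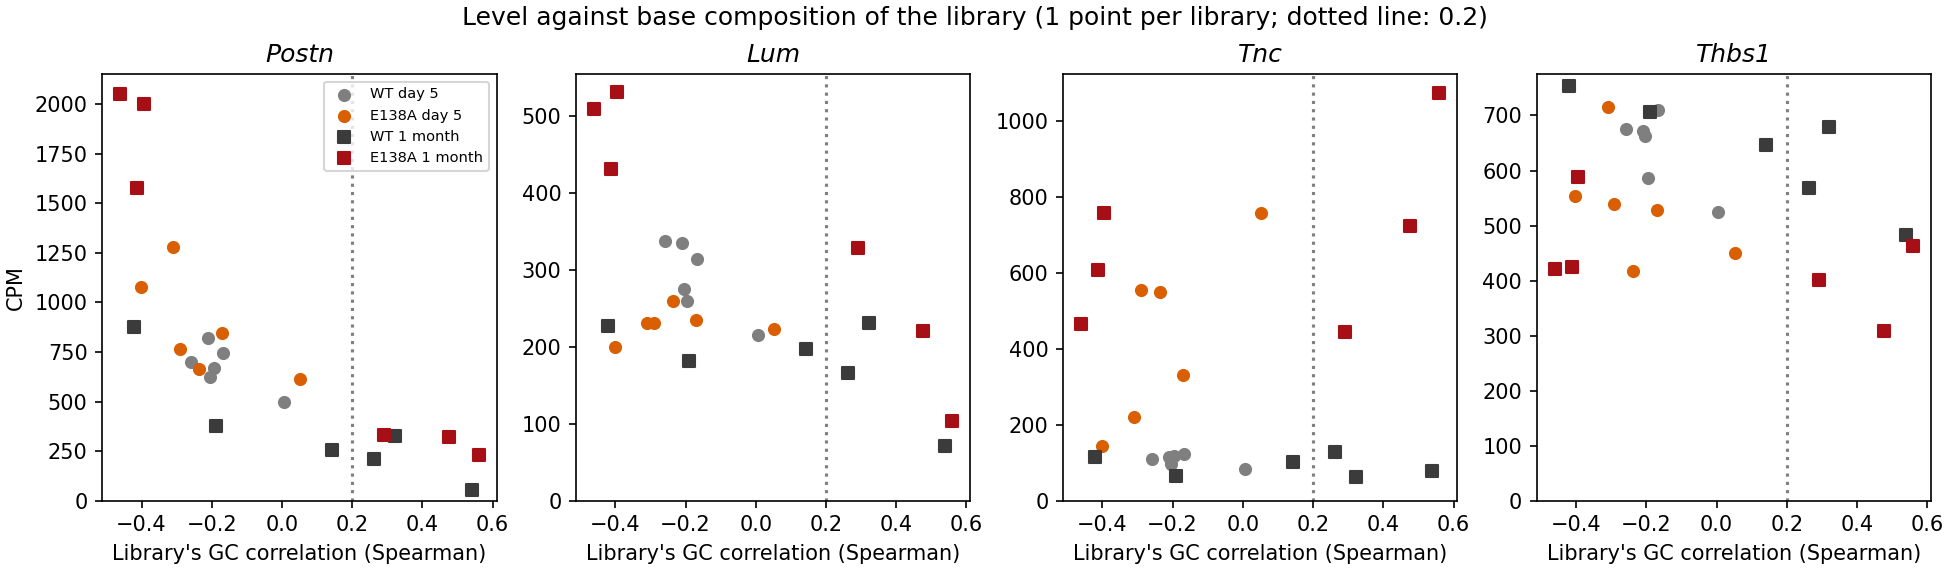
CPM (y axis) of Postn, Lum, Tnc and Thbs1 against the GC correlation of each library (x axis), 1 point per library, circles for day 5 and squares for 1 month. The 1 month libraries spread from -0.46 to 0.56, Postn is at 332 CPM or less on the right of the dotted line at 0.2 in both genotypes, and the Tnc points of mutant ears lie above wild type on either side.

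Of the elastic fibre genes, Fbn1 at 1 month ranged over 211 to 279 CPM with a median of 240 in wild-type and 246 to 573 CPM with a median of 358 in mutant ears. The groups overlapped and the log2 fold change was 0.61 ± 0.20 (edgeR adjusted p = 0.013). The Fbn1 call was lost in both GC sets, with 0.71 ± 0.30 (adjusted p = 0.057) above 0.2 and 0.48 ± 0.25 (adjusted p = 0.12) in the other, and held without the libraries low in Y-linked genes (0.52 ± 0.21, adjusted p = 0.044). Without mutant library 6, the highest, it was 0.41 with an adjusted p of 0.075. Fbln1 gave 29.4 to 59.7 CPM with a median of 38.7 and 44.9 to 84.3 CPM with a median of 55.7, and the mutant was higher by 0.53 ± 0.17 on the log2 scale (edgeR adjusted p = 0.013). Within each GC set mutant Fbln1 lay above wild type without overlap, at 1.48 times above 0.2 and 1.40 times in the other set. The share of all tested genes without overlap in such sets of 3 was not counted. The Fbln1 call was lost without wild-type library 1 (0.43, adjusted p = 0.052) or mutant library 6 (0.40, adjusted p = 0.072), and without the 4 libraries low in Y-linked genes (0.18, adjusted p = 0.38). Eln overlapped broadly at 209 to 436 CPM with a median of 342 and 196 to 636 CPM with a median of 269, and differed by -0.03 ± 0.22 on the log2 scale (edgeR adjusted p = 0.92). Its highest library, mutant 6 at 636 CPM, is also the highest of its group for Sparc (4516 CPM), Fn1 (1327 CPM), Fbn1 (573 CPM) and Tnc (1073 CPM). Fn1 stood at 0.27 ± 0.18 (adjusted p = 0.23) and Sparc at -0.23 ± 0.25 (adjusted p = 0.48). Without the libraries low in Y-linked genes Eln (-0.54, adjusted p = 0.018) and Sparc (-0.79, adjusted p = 0.014) were called lower at 1 month too. That fit sets mutant libraries with GC correlations of -0.46 to -0.39 against wild-type libraries of -0.42 to 0.32. Among libraries with a GC correlation below 0.2 neither was called by edgeR (Eln -0.38, adjusted p = 0.089, and Sparc -0.45, adjusted p = 0.11).

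The difference between the 2 genotype differences was tested as an interaction in the same fit. It was positive, that is, the mutant difference was higher at 1 month than at day 5, and passed for 5 of the 10 genes, where 4.68% of all tested genes passed as higher and 4.09% as lower. None of the 10 passed as lower. Eln had the largest value at 1.70 ± 0.31 (edgeR adjusted p = 0.00078), followed by Lum at 1.32 ± 0.40 (0.042), Fn1 at 1.26 ± 0.26 (0.0023), Sparc at 1.12 ± 0.35 (0.048) and Fbn1 at 1.08 ± 0.28 (0.015). Eln, Fn1 and Fbn1 stayed past the threshold in all 11 alternative settings of this test and without any 1 library. Lum lost it when any of 16 of the 24 libraries was left out and Sparc with any of 20, so these 2 calls sit at the threshold. The highest adjusted p in those fits was 0.073 for Lum and 0.12 for Sparc (edgeR). Without the libraries low in Y-linked genes the Sparc value was 0.53 (adjusted p = 0.22), and among the 1 month libraries with a GC correlation above 0.2 that of Lum was 0.81 (adjusted p = 0.24). Tnc rose at both times, and the change of its difference, 0.89 ± 0.42, did not pass (edgeR adjusted p = 0.24). Postn had 1.26 ± 0.72 (0.37), and passed in 4 of 11 alternative settings: with voom (2.56, adjusted p = 2.5e-05), without the libraries low in Y-linked genes (1.79, 0.0051), in the set with low GC correlation (1.52, 0.022) and with GC-corrected offsets (1.20, 0.040). The others were Dcn -0.35 ± 0.31 (0.64), Thbs1 -0.30 ± 0.21 (0.48) and Fbln1 0.23 ± 0.25 (0.73).

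**Figure D3:**
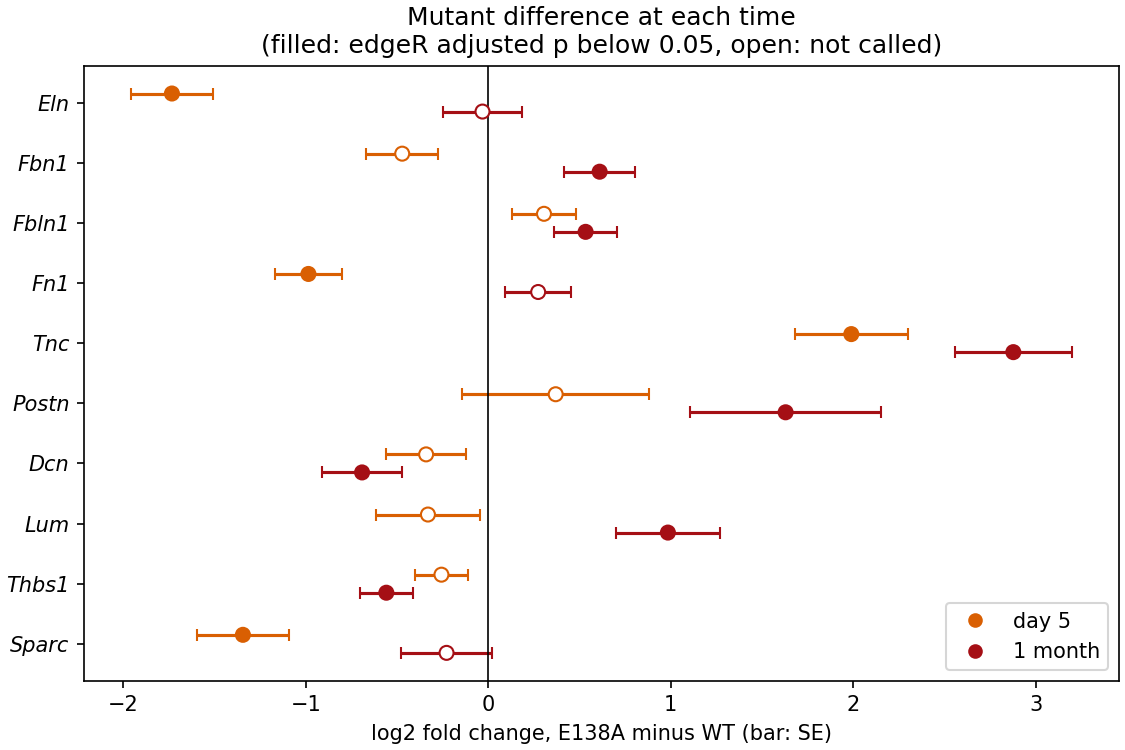
Log2 fold change of mutant minus wild type (x axis, bars are SE) for the 10 genes at day 5 (orange) and 1 month (red), with filled points for edgeR calls. Eln, Fn1 and Sparc have filled points at day 5 and open ones at 1 month, Tnc is called higher at both times, and the 1 month points of Fbn1 and Lum lie on the other side of 0 from their day 5 points.

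In wild-type ears none of the 10 genes passed between day 5 and 1 month with edgeR, where 6.28% of all tested genes rose and 2.81% fell. Of the 10 genes, 4 had an unadjusted p below 0.05, and DESeq2 called 1. The log2 changes ran from -0.95 for Postn to 0.52 for Fbln1, whose adjusted p of 0.063 was the lowest. Fbn1 alone of the 10 did not overlap, against 5.07% of all tested genes, at 280 to 426 CPM with a median of 354 on day 5 and 211 to 279 CPM with a median of 240 at 1 month (-0.54 ± 0.20, edgeR adjusted p = 0.082). Time and sequencing depth moved together, with deeper libraries at 1 month, and cannot be told apart here.

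Across all 24 libraries, with the group means removed from log2 CPM, Eln and Sparc moved most closely together (Pearson r = 0.92), then Fbn1 and Fn1 (0.87), Dcn and Lum (0.85), Lum and Postn (0.84) and Dcn and Postn (0.79). The lowest value was -0.74, between Fbln1 and Postn. These are descriptions over 24 libraries that differ in depth and base composition, and the trio of Postn, Dcn and Lum holds the lowest transcript GC of the 10 genes (36.3% to 41.9%, against 49.9% to 58.8% for the others). The genes most like Eln over all 24 libraries, of 12458 with a mean of at least 5 CPM, were Ccdc8 (r = 0.95), Matn4 (0.95) and Cercam (0.95). Those most like Tnc were Il1rn, the interleukin-1 receptor antagonist, Igsf3, and Gjb2, the gap junction protein connexin 26, each with r = 0.97. With group means removed the 6 values lay between 0.83 and 0.87. Mean Gjb2 was 19.8 CPM in wild-type and 249 CPM in mutant ears at day 5, and 20.6 and 422 CPM at 1 month.

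Other genes of elastic fibre assembly moved largely downwards at day 5, with a median log2 fold change of -0.46. Of 19, 2 rose, 11 fell and 6 did not pass, where 20.7% of all tested genes rose and 20.2% fell. The 2 that rose were Emilin2 (1.52 ± 0.28) and Efemp1 (0.55 ± 0.12), named after their values were seen. Mfap4, a microfibril-associated glycoprotein, fell by 2.05 on the log2 scale (SE 0.31, edgeR adjusted p = 1.3e-05), and the lysyl oxidases Loxl2 and Loxl4 fell by 1.52 and 0.93. At 1 month 5 rose and 4 fell of 19, close to the shares of all tested genes (25.5% and 21.5%), with a median of 0.29. Those that fell were Loxl4 (-1.54 ± 0.18, edgeR adjusted p = 3.3e-07), Loxl3 (-1.16 ± 0.15), Ltbp4 and Ltbp3, and those that rose were Emilin2, Fbln2, Fbn2, Mfap2 and Loxl1, from 0.73 to 1.24. Loxl2 and Mfap4 stood at 0.18 and -0.05 there. The interaction passed as higher for 9 of the 19 and as lower for 1, Loxl3, against 4.68% and 4.09% of all tested genes. Its median was 0.82 against 0.02 over all genes.

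Among 12 further matricellular genes, 2 rose and 8 fell at day 5, and 2 rose and 5 fell at 1 month. Over all tested genes 20.7% rose and 20.2% fell at day 5, and 25.5% rose and 21.5% fell at 1 month. Thbs2 and Tnn turned round: Thbs2, for thrombospondin-2, fell by 1.56 (SE 0.16) at day 5 and rose by 1.42 ± 0.16 at 1 month, an interaction of 2.99 ± 0.23 (edgeR adjusted p = 1.3e-08). Tnn, for tenascin-N (also called tenascin-W), fell by 1.07 (SE 0.31) and rose by 2.56 ± 0.30, an interaction of 3.64 ± 0.43 (edgeR adjusted p = 7.3e-06). Ccn2, the connective tissue growth factor gene, was lower at both times (-0.46 ± 0.16 and -1.47 ± 0.16), as was Thbs4 (-0.39 ± 0.14 and -1.02 ± 0.14). The 2 genes that rose at day 5, Spp1 (1.46 ± 0.28) and Ccn1 (0.86 ± 0.23), were named after their values were seen.

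Of 8 further leucine-rich proteoglycans none rose at either time, 5 fell at day 5 and 3 fell at 1 month, with medians of -0.98 and -0.96. The shares of all tested genes were 20.7% higher and 20.2% lower at day 5, and 25.5% higher and 21.5% lower at 1 month. Fibromodulin (Fmod), which binds collagen beside lumican, fell at both times (-1.02 ± 0.20 and -1.51 ± 0.20). Kera fell at day 5 (-1.97 ± 0.39, edgeR adjusted p = 0.00028) and stood at -0.03 ± 0.34 at 1 month, while Omd (-2.25 ± 0.40) and Prelp (-1.01 ± 0.18) fell at 1 month. Lum, higher at 1 month, thus differed in direction from all 3 of these genes that were called there.

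Of 12 receptor genes for these proteins, 1 rose and 4 fell at day 5, and 4 rose and 4 fell at 1 month, where 20.7% and 20.2% of all tested genes rose and fell at day 5 and 25.5% and 21.5% at 1 month. Itgb3, part of an integrin that binds fibronectin, periostin and other ligands, turned from -0.70 ± 0.15 to 0.56 ± 0.14 (interaction 1.25 ± 0.21, edgeR adjusted p = 0.00027). Itgb5 (-1.06 ± 0.20 and -0.63 ± 0.20) and Itga9, part of a tenascin-C receptor (-0.62 ± 0.13 and -0.42 ± 0.13), fell at both times, and Sdc4, a fibronectin co-receptor, fell at 1 month (-0.77 ± 0.13). Of 6 TGF-beta ligands and receptors, 2 rose and 2 fell at day 5, and 1 rose and 3 fell at 1 month. Tgfb1 was higher at both times (1.03 ± 0.20 at each), Tgfb2 (-1.56 ± 0.20 and -1.11 ± 0.20) and Tgfb3 (-1.16 ± 0.21 and -1.31 ± 0.21) were lower at both, and the receptor Tgfbr3 fell at 1 month (-0.53 ± 0.10, edgeR adjusted p = 8.9e-05). None of the 6 passed the interaction.

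**Figure D4:**
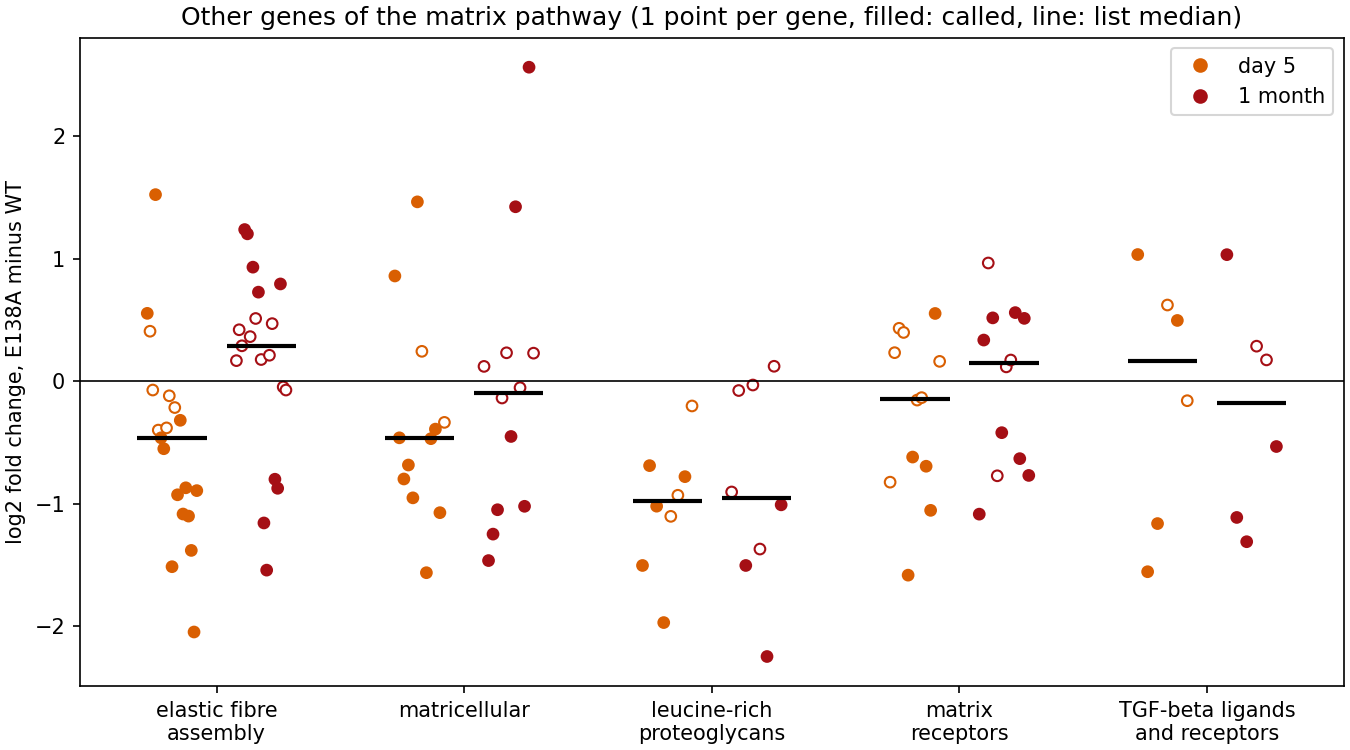
Log2 fold change of mutant minus wild type (y axis) for other genes of 5 matrix lists (x axis), 1 point per gene, at day 5 (orange) and 1 month (red), filled where called by edgeR, with the list median as a line. The median of the elastic fibre assembly genes is -0.46 at day 5 and 0.29 at 1 month, and that of the leucine-rich proteoglycans is below 0 at both times.

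Markers of the cells that could supply these transcripts moved with genotype as well, and their part in the results was not tested. Beside the marker counts, 20.7% of all tested genes rose and 20.2% fell at day 5, and 25.5% rose and 21.5% fell at 1 month. The 10 fibroblast markers summed to 1001 to 1280 CPM (wild type) and 884 to 1047 CPM (mutant) at day 5, and to 1099 to 2219 and 1057 to 1752 CPM at 1 month. Of them 2 rose and 5 fell at day 5, and 4 rose and 3 fell at 1 month. Pdgfra (0.74 and 0.60) and Pdpn (1.55 and 1.10) were higher at both times. Pdgfrb, a receptor of fibroblasts and pericytes, went from -0.52 at day 5 to 0.69 at 1 month, and Dpt, for the matrix protein dermatopontin, was lower at both (-1.28 and -0.82). Fap (-1.38 and -1.035) and Clec3b (-0.93 and -1.12) were lower at both times too. Cd34 fell at day 5 (-0.80) and Lsp1 rose at 1 month (0.55). All 8 cartilage markers fell at day 5, from 519 to 690 CPM in wild-type to 208 to 371 CPM in mutant ears when summed, and 6 fell at 1 month, from 424 to 949 to 228 to 449 CPM. Cartilage and its perichondrium also make elastin and SPARC.

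Smooth muscle and pericyte markers, 7 in all, summed to 431 to 557 CPM (wild type) and 219 to 370 CPM (mutant) at day 5, where 2 fell, and to 455 to 1214 and 352 to 562 CPM at 1 month, where 3 rose and 2 fell. The largest part of the 1 month sums was Des, with a mean of 511 CPM in wild-type and 141 CPM in mutant ears. Des (-1.86) and Cspg4 (-0.78) fell there, while Acta2 (0.74), Tagln (0.74) and Cnn1 (1.10) rose. Adipocyte markers fell in 5 and 6 of 6 (361 to 629 against 171 to 318 CPM, then 467 to 1186 against 185 to 323 CPM). Skeletal muscle markers fell in 4 and 7 of 7 (4210 to 5681 against 1857 to 3781 CPM, then 5499 to 14790 against 863 to 3390 CPM). Macrophage and monocyte markers, by contrast, rose in 6 and 7 of 7, from 210 to 257 to 302 to 920 CPM at day 5 and from 164 to 293 to 374 to 663 CPM at 1 month. Platelet markers, since platelets store thrombospondin-1, were tested for 4 of 6 genes, of which 3 rose at day 5 (42 to 48 against 55 to 123 CPM) and 1 at 1 month (29 to 88 against 32 to 87 CPM). Endothelial markers rose in 1 and fell in 1 of 6 at day 5 and rose in 2 at 1 month. Keratinocyte markers rose in 2 and fell in 1 of 6, then rose in 3 and fell in 2. All tested genes rose in 20.7% and fell in 20.2% at day 5, then rose in 25.5% and fell in 21.5%. Every listed marker had counts in every group apart from 1 platelet gene in wild-type ears at day 5.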

How the data were processed

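PolyA-selected RNA of whole mouse ears was sequenced single-end in 24 libraries (6 in each of 4 groups), per the labels' protocols. The authors deposited 1 table of expected counts from RSEM, with Ensembl identifiers as rows. RSEM 1.3.0, STAR 2.5.2, DESeq2 1.14.1 and GRCm38 are listed in the submitters' processing notes. The annotation release and the use of strand are not given in the sources used here. Counts (6.71% not whole) were rounded. GENCODE M21 gave symbols, exon lengths and transcript GC.

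In R 4.3.3, edgeR 4.0.16 (filterByExpr, TMM, robust quasi-likelihood fit of 1 coefficient per group, two-sided F tests) tested 17287 genes, with Benjamini-Hochberg adjustment over all of them and calls below 0.05. Standard errors are the log2 fold change divided by the square root of F. CPM and RPKM use TMM-scaled library sizes, and log2 CPM for likeness a prior count of 2. The fit was tested on simulated data. No pair of libraries of the same group agreed within sampling noise, and pairs across groups were not compared.

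Genes that overlap Eln, Fbn1, Fn1, Tnc and Thbs1 on the other strand reached at most 0.401 CPM. Alternatives were DESeq2 1.42.0, limma 3.58.1 (voom with quality weights), other scalings and filters, fits of the compared groups only, a replicate block, fits without libraries low in Y-linked genes (under 80 CPM) and without each library. Fits by GC correlation (limit of 0.2) and with GC-corrected offsets (20 bins) were chosen after seeing the data, as was the limit of 80 CPM. The 10 genes and all lists were chosen with earlier results of these data known. Besides the 10 genes, the text names the 4 genes per matrix list with the lowest adjusted p at either time and the 3 genes most like Eln and Tnc, and further genes only where a count of 5 or fewer is spelled out or a marker is described. Same-numbered libraries did not deviate together (r from -0.73 to 0.39), so numbers were not taken as pairs.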

Additional observations from a re-analysis of the deposited data

Results flagged for a closer look

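The genotype difference of 5 genes was not the same at the 2 times by the interaction test of edgeR. The change from day 5 to 1 month on the log2 scale was 1.70 for Eln, 1.32 for Lum, 1.26 for Fn1, 1.12 for Sparc and 1.08 for Fbn1. For Eln, Fn1 and Sparc a fall at day 5 was followed by a difference that did not pass at 1 month, and for Fbn1 and Lum a difference below 0 that did not pass was followed by a rise. The interaction call was lost in 16 of 24 fits without 1 library for Lum and in 20 for Sparc. Eln and Sparc were called lower at 1 month with voom and without the libraries low in Y-linked genes. No library of these 10 genes stood apart from the others of its group by the gap test for 6 values, in any of 40 sets of a gene and a group. The test looks at a single lowest or highest value. It cannot show a group that splits into 2 sets, as mutant Postn at 1 month did.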

How the results depend on the processing

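The day 5 calls of Eln, Fn1, Sparc and Tnc and the 1 month calls of Tnc and Thbs1 held in all 12 alternative settings and without any 1 library. At day 5, 4 genes were called, 9 with voom, 8 when only the compared groups were fitted, 8 with the 1 month libraries of low GC correlation, and 4 to 5 without 1 library. At 1 month 7 were called, 3 with the compared groups only (Tnc, Thbs1 and Fbn1), 4 with a GC correlation above 0.2, and 5 to 7 without 1 library. Without the libraries low in Y-linked genes 8 were called there, 4 higher and 4 lower. With voom 7 were called, of which 5 were the same. Voom added Eln (-0.43, adjusted p = 0.015) and Sparc (-0.64, adjusted p = 0.0047) as lower, and lost Dcn and Fbln1. For the interaction 5 were called, 3 without a filter, 3 with the replicate block (Lum adjusted p = 0.090, Sparc 0.096), 6 with voom, low GC correlation or GC-corrected offsets, where Postn was added, and 3 to 5 without 1 library. The replicate block changed no other call. Over time in wild type 0 were called, 1 with DESeq2, RLE factors, total counts or the strict filter, 6 with voom, 2 with the compared groups only, 4 without the libraries low in Y-linked genes, 2 and 3 with a GC correlation below and above 0.2, 3 with GC-corrected offsets, and 0 to 2 without 1 library. Values that changed sign, none of them called, were the Dcn interaction (0.22 with voom, 0.013 with low GC correlation), the Fbln1 interaction (-0.11 with voom, -0.14 without libraries low in Y-linked genes), Eln at 1 month (0.18 above a GC correlation of 0.2, -0.381 to 0.081 without 1 library), and, over time in wild type, Dcn (0.47, GC-corrected offsets), Fn1 (0.024, high GC correlation), Sparc (-0.18, low GC correlation, and -0.046 to 0.304 without 1 library) and Thbs1 (-0.075 with voom, -0.004 with the replicate block, -0.11 with high GC correlation, -0.05 with GC-corrected offsets, -0.048 to 0.072 without 1 library). The causes were not tested. The lowest level of the 10 genes in any library was 23.2 CPM, for Fbln1.

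Over all tested genes, calls at day 5 numbered 7068, or 11699 with voom, 9913 with the compared groups only and 10013 with low GC correlation. At 1 month 8139 became 6055 with the compared groups only, 8312 with high GC correlation, 9541 without libraries low in Y-linked genes and 10871 with voom. For the interaction 1516 became 8217 with voom, 4630 without libraries low in Y-linked genes, 2827 with low GC correlation and 2279 with GC-corrected offsets. Over time in wild type 1572 (1086 higher, 486 lower) became 2458 with DESeq2, 8227 with voom, 1019 with the block, 3168 without libraries low in Y-linked genes, 989 and 7217 with low and high GC correlation, 2658 with GC-corrected offsets, 3026 and 937 without wild-type 1 month libraries 1 and 5, and split into 1457 higher and 374 lower with RLE factors and 1518 and 346 with total counts.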
